A study of Danio rerio with 18 samples.

Results

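The genes described here encode the digestive enzymes that acinar cells of the exocrine pancreas make and secrete: the trypsins prss1, prss59.1 and prss59.2, the chymotrypsinogen ctrb1, the carboxypeptidases cpa1, cpa5 and cpb1, and the elastases ela2, ela2l and ela3l. They were chosen by symbol, ignoring case, from a deposited table of 25535 genes. Of the 10 symbols, 8 matched the table's gene names, ctrb1 matched through its synonym as ctrb.1 (ENSDARG00000090428), and cpa5 had no match. The symbol CPA1 is given to 2 identifiers, ENSDARG00000021339 and ENSDARG00000030915, and the name tables do not settle whether either of them is cpa5, so both are named CPA1 with their identifier. This gave 10 genes, of which 8 passed the filter on low values and were tested, while CPA1 (ENSDARG00000030915) and ela3l did not pass it.

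Acinar cells store these proteases in granules as inactive precursors and release them into the gut, where trypsin activates the others. Trypsins cut proteins after lysine and arginine, chymotrypsins after large hydrophobic residues and elastases after small ones, and carboxypeptidases remove residues from the end of the chain. In zebrafish the exocrine tissue forms from endoderm around the endocrine islet, and its cells fill with zymogen as the larva approaches feeding. Transcripts of the trypsin and carboxypeptidase genes are in common use as markers of acinar differentiation.

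RNA was measured by poly(A) RNA sequencing of zebrafish (Danio rerio) in 18 libraries, each a pool of 20 to 25 whole embryos, in 6 groups of 3. The groups sampled 24 hours post fertilisation (hpf) were uninjected wild-type embryos of the WIK strain, her3 -/- embryos of the line titled her3_38aa, WIK embryos given a her3 morpholino (an antisense oligomer) at the 1- to 4-cell stage, and WIK embryos given a mismatch morpholino at that stage as the injection control. At 72 hpf the groups were uninjected WIK embryos and her3 -/- embryos of the same line, and every embryo had been freed of its chorion at 24 hpf. The her3 gene encodes a transcriptional repressor of the Hairy/E(spl) family. The sources used here do not name the background strain of the her3 -/- line or its number of founders.

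The 18 libraries held 14214136 to 23135995 reads over the table's genes. Values are reads scaled to a common library size (CPM), and 3 reads in a library, the upper limit that a count of 0 allows, were worth 0.122 to 0.255 CPM. Over all genes, 1 library stood apart from its group in 4 of the 6 groups, namely WIK replicate 1, her3 morpholino replicate 1 and mismatch morpholino replicate 3 at 24 hpf and her3 -/- replicate 3 at 72 hpf. In WIK at 72 hpf no library stood apart over all genes (4.02 to 4.48 for the chi-square between replicate pairs over its degrees of freedom). The her3 transcript was not lower in the her3 -/- libraries: at 24 hpf WIK had 10 ± 0.916 CPM and they had 22.1 ± 0.0623 CPM, and at 72 hpf the values were 1.35 ± 0.114 and 2.15 ± 0.313 CPM (SD, n = 3). The her3 -/- libraries are therefore called knockout-labelled below. How the allele acts on the her3 RNA was not tested. The her3 transcript was also higher after the her3 morpholino, at 35.9 ± 5.15 CPM against 7.87 ± 0.214 CPM after the mismatch control, so the RNA level gives no check of either label in the direction of a loss. In whole embryos, fewer acinar cells and less enzyme RNA per acinar cell cannot be told apart.

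The digestive enzyme genes were compared between the knockout-labelled and WIK libraries at 72 hpf. Transcripts of 7 of the 8 tested enzymes fell in the knockout-labelled embryos, all 3 trypsins, ctrb1, CPA1 (ENSDARG00000021339), cpb1 and ela2l, and ela2 did not pass the test. The sum over the 10 genes was 46.7, 98.1 and 91.1 CPM in WIK replicates 1, 2 and 3 and 17.8, 27.0 and 18.1 CPM in the knockout-labelled replicates, so the knockout-labelled mean was 26.6% of the WIK mean. The lowest WIK library stood above the highest knockout-labelled library. Across all 20738 genes tested, 5.71% were called lower and 5.11% higher at an adjusted p under 0.05.

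Among the trypsins, prss59.2 (ENSDARG00000073742) was at 22.0, 40.6 and 36.9 CPM in the 3 WIK libraries and at 7.68, 10.4 and 7.05 CPM in the 3 knockout-labelled pools. The groups did not overlap, and WIK replicate 1 was the lowest WIK library. On the log2 scale, knockout-labelled minus WIK came to -1.90 ± 0.21 (SE; adjusted p = 1.6e-05, limma).

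For prss59.1 (ENSDARG00000079274), which lies next to prss59.2 with 0 genes between them in the RefSeq annotation of the GRCz12tu assembly, the WIK libraries held 3.81, 12.3 and 11.1 CPM and the knockout-labelled libraries 1.74, 2.01 and 1.14 CPM. The groups were again separate, with WIK replicate 1 at 32.4% of the mean of the other WIK libraries. This gene had the largest log2 difference of the 8 tested enzymes, -2.04 ± 0.29 (adjusted p = 0.00019). The third trypsin, prss1 (ENSDARG00000042993), was at 8.88, 17.5 and 16.4 CPM in WIK and at 2.76, 4.69 and 3.16 CPM in knockout-labelled pools. Its groups did not overlap, and its log2 difference was -1.84 ± 0.25 (adjusted p = 9.7e-05). No source used here states how reads shared between near-identical trypsin, elastase or chymotrypsinogen copies were counted, which makes the split of reads between such neighbours uncertain.

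ctrb1, a chymotrypsinogen, was the most uneven of the called genes within WIK. It was at 1.71, 6.70 and 8.13 CPM in WIK replicates 1, 2 and 3, and at 0.563, 2.06 and 1.33 CPM in knockout-labelled pools. WIK replicate 1 lay inside the range of the knockout-labelled libraries, so the groups overlapped. The log2 difference was -1.60 ± 0.37 (adjusted p = 0.010). The call was lost in turn without WIK replicate 2 (adjusted p = 0.062), WIK replicate 3 (0.061) or knockout-labelled replicate 1 (0.059), and in a fit of the compared groups alone (0.12).

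Of the carboxypeptidases, cpb1 (ENSDARG00000045442), which removes basic residues, was the most even. Its WIK libraries held 4.15, 4.78 and 4.27 CPM and its knockout-labelled libraries 1.69, 2.2 and 1.37 CPM. WIK replicate 1 stood at 91.6% of the mean of the other WIK libraries, the groups were well separated, and the log2 difference was -1.13 ± 0.18 (adjusted p = 0.00043).

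CPA1 (ENSDARG00000021339), a carboxypeptidase A, was at 4.00, 10.4 and 7.17 CPM in WIK and at 2.71, 4.21 and 2.52 CPM in knockout-labelled pools. Knockout-labelled replicate 2 lay above WIK replicate 1, so these groups overlapped. The log2 difference was -1.01 ± 0.25 (adjusted p = 0.013). That call was lost without WIK replicate 2 (adjusted p = 0.0735), without knockout-labelled replicate 1 (0.053) or replicate 3 (0.062), in a fit of the compared groups alone (0.062), with a pseudocount of 0.1 (0.12) and with voom weights on the recovered reads (0.055). The other identifier named CPA1 (ENSDARG00000030915) had 21 reads in all WIK libraries and 11 in all knockout-labelled libraries at 72 hpf. Its levels were 0.488, 0.319 and 0.254 CPM in WIK and 0.154, 0.191 and 0.183 CPM in knockout-labelled pools, where WIK replicate 1 was the highest library, unlike in the other 9 genes.

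The elastases had few reads at 72 hpf, above all in the knockout-labelled libraries. ela3l (ENSDARG00000007276) had 147 reads in the 3 WIK libraries and 10 in the 3 knockout-labelled libraries. Its WIK libraries were at 0.976, 3.24 and 3.35 CPM and its knockout-labelled libraries at 0.0512, 0.191 and 0.229 CPM, without overlap. The knockout-labelled mean was 6.22% of the WIK mean, the lowest share among the 10 genes. Because only 2 libraries reached 1 CPM, ela3l was left out of the main fit. In the fit with no filter on low values its log2 difference was -2.09 ± 0.25 (adjusted p = 3.4e-05), and that fit called 8 of the 10 genes lower; CPA1 (ENSDARG00000030915) was at -0.33 ± 0.13 there (adjusted p = 0.13).

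ela2l (ENSDARG00000056765) was at 0.390, 1.28 and 1.58 CPM in WIK and at 0.307, 0.0957 and 0.366 CPM in knockout-labelled pools. The groups were separate in CPM only, since WIK replicate 1 and knockout-labelled replicate 3 had 8 reads each. The log2 difference was -0.99 ± 0.28 (adjusted p = 0.032). Leaving out WIK replicate 2 (adjusted p = 0.14), WIK replicate 3 (0.16), knockout-labelled replicate 1 (0.0635) or knockout-labelled replicate 2 (0.15) ended the call. ela2 (ENSDARG00000056744), its direct neighbour in the RefSeq annotation, was at 0.342, 0.903 and 1.88 CPM in WIK and at 0.102, 0.957 and 0.732 CPM in knockout-labelled pools. Those groups overlapped, and the log2 difference was -0.46 with a 95% interval from -1.33 to 0.41 (adjusted p = 0.58), an interval that includes the difference measured for cpb1.

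**Figure D1:**
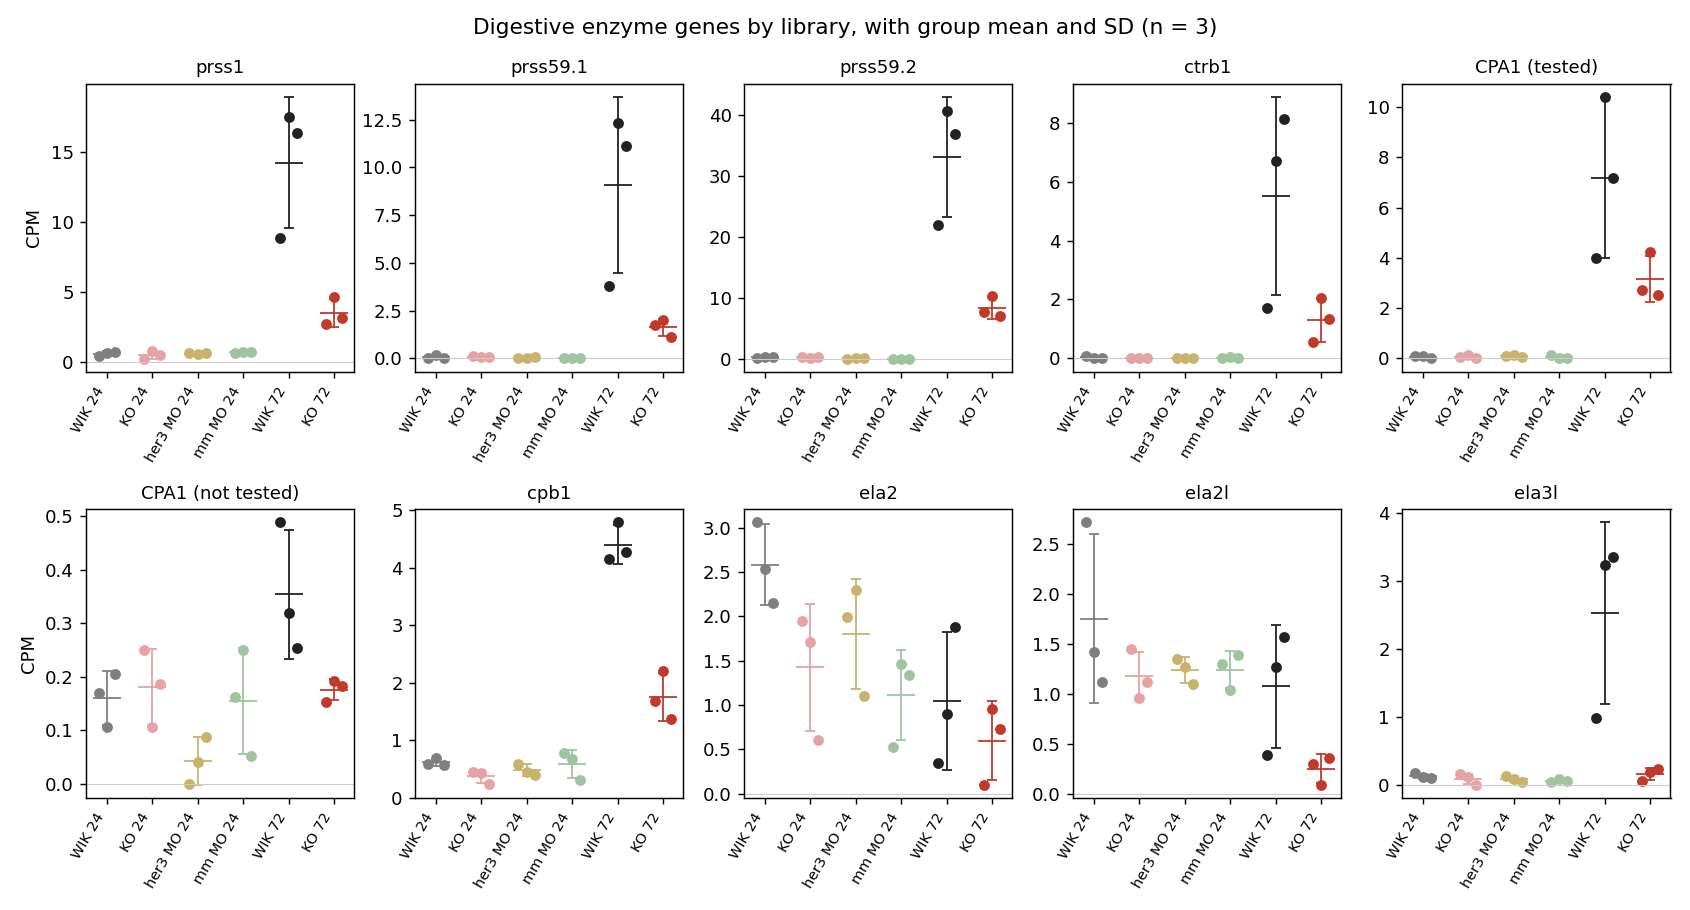
CPM of each digestive enzyme gene in each of the 18 libraries (points), with the mean and SD of each group of 3 (horizontal mark and bar); KO is the knockout-labelled line, MO a morpholino, mm mismatch, 24 and 72 the age in hpf, and the 2 CPA1 identifiers are marked by whether they passed the filter and were tested. The trypsins, ctrb1, cpb1, the tested CPA1 and ela3l are near 0 at 24 hpf and highest in WIK at 72 hpf, while ela2 and ela2l have their highest library at 24 hpf.

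The panels of levels by library show how the spread within a group compares with the difference between groups. Over the 10 genes, 7 had every WIK library above every knockout-labelled library at 72 hpf, and of the 8 tested genes 5 did, against a background of 18.6% of all tested genes with that order. For 2 of the 7 the order rested on few reads, 8 against 8 at its closest for ela2l and 5 against 4 for CPA1 (ENSDARG00000030915). The median log2 difference of the 8 tested enzymes was -1.37, and that of all genes tested was -0.01. ctrb1 reached 1 CPM in 3 WIK and 2 knockout-labelled libraries at 72 hpf and in none at 24 hpf, so it passed the filter only through the group where it was high, and its call follows in part from the filter. Of the 7 other tested genes, which would have passed without the WIK libraries of 72 hpf, 6 were called lower, with a median log2 difference of -1.13.

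WIK replicate 1 was low for these genes, which was known when they were chosen, so its counts here are a description. It was the lowest of the 3 WIK libraries at 72 hpf for 9 of the 10 genes, and 34.4% of all tested genes had their lowest WIK value there. As a share of the mean of the other WIK libraries it ranged from 23.0% for ctrb1 and 24.5% for ela2, through 52.3% for prss1 and 56.8% for prss59.2, to 91.6% for cpb1, and the exception was CPA1 (ENSDARG00000030915) at 170%. Summed over the 10 genes, the mean of the knockout-labelled libraries was 44.8% of the value in WIK replicate 1. Of the 46.7 CPM of that sum in WIK replicate 1, prss59.2 made up 22.0. By gene the share ran from 16.1% for ela3l to 77.0% for ctrb1 and 78.6% for CPA1 (ENSDARG00000021339), and it was 175% for ela2. WIK replicate 1 lay above every knockout-labelled library for 7 of the 10 genes, the same genes counted above as not overlapping.

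Without WIK replicate 1, the same number of tested genes, 7 of 8, was called lower. The log2 differences then were -2.14 ± 0.23 for prss1, -2.54 ± 0.17 for prss59.1, -2.16 ± 0.19 for prss59.2 and -2.21 ± 0.25 for ctrb1. For the carboxypeptidases they were -1.36 ± 0.20 for CPA1 (ENSDARG00000021339) and -1.17 ± 0.20 for cpb1, and for the elastases -0.83 ± 0.42 for ela2 and -1.36 ± 0.25 for ela2l. Each of the 8 differences was larger in size than with all libraries, by little for cpb1. That direction was fixed in advance, since WIK replicate 1 was the lowest WIK library for each of these 8 genes.

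**Figure D2:**
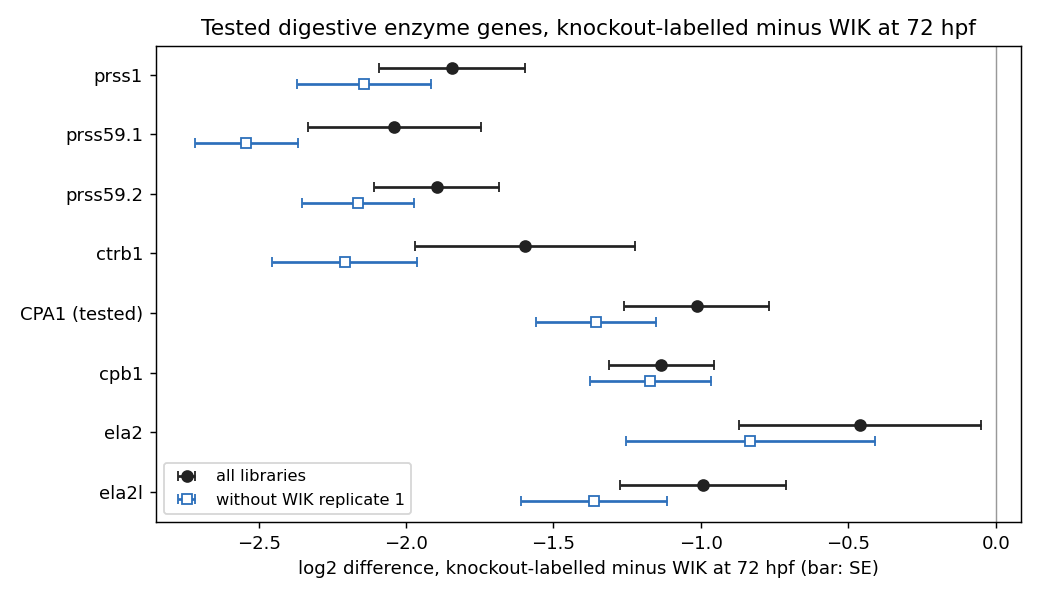
Log2 difference of knockout-labelled from WIK libraries at 72 hpf (horizontal axis, on log2(CPM + 0.5)) for the 8 tested genes, with all libraries (filled circles) and without WIK replicate 1 (open squares); bars are standard errors. All 8 points lie below 0 in both fits, from -2.04 for prss59.1 to -0.46 for ela2 with all libraries.

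The knockout-labelled libraries also varied together. Replicate 2 was the highest of the 3 for 8 of the 10 genes, against 23.3% of all tested genes, and ela2l and ela3l had their highest value in replicate 3. The sum over the 10 genes was 27.0 CPM in replicate 2 and 17.8 and 18.1 CPM in the others. By that sum replicate 3 of this group, which stood apart over all genes, was not the extreme one. Gene by gene, replicate 3 was the lowest of the 3 for prss59.1, prss59.2, CPA1 (ENSDARG00000021339) and cpb1. Leaving out the 4 libraries that stood apart gave 6 called genes, with ctrb1 not passing (adjusted p = 0.051).

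**Figure D3:**
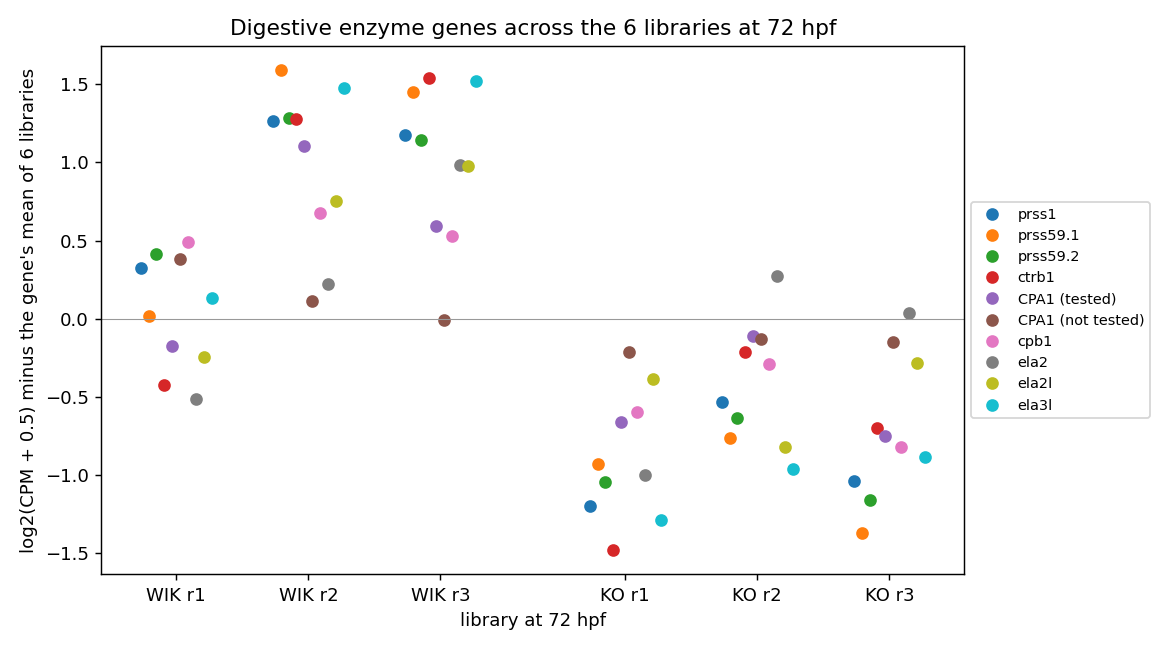
Log2(CPM + 0.5) of each gene in the 6 libraries at 72 hpf, less that gene's own mean over the 6 (vertical axis); each colour is a gene, r is the replicate, KO is knockout-labelled, and replicates have no order. WIK replicate 1 sits below the other WIK libraries for every gene but the CPA1 identifier that was not tested, and knockout-labelled replicate 2 is the highest of its group for 8 of 10 genes.

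The same enzymes were followed from 24 to 72 hpf within WIK. Transcripts of the trypsins, ctrb1, CPA1 (ENSDARG00000021339) and cpb1 rose, and those of ela2 fell. Of the 8 tested genes 6 were called higher and 1 lower, where 38.6% of all tested genes were called higher and 36.0% lower, so a call in either direction was common. The 6 called higher reached 1 CPM at 72 hpf only and so passed the filter through the age at which they were high, which makes their count a description and not support for a rise. At 24 hpf prss1 ranged from 0.250 to 0.803 CPM and cpb1 from 0.233 to 0.775 CPM over the 12 libraries of that age. prss59.1 had 0 reads in 6 of those 12 libraries and ctrb1 in 10 of them.

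In WIK the log2 difference of 72 from 24 hpf was 5.49 ± 0.21 for prss59.2 (adjusted p = 7.4e-13), 3.93 ± 0.29 for prss59.1 (2.8e-09) and 3.67 ± 0.25 for prss1 (7.4e-10). For cpb1 it was 2.14 ± 0.18 (adjusted p = 1.1e-08). These values understate the change of genes near 0, and as ratios of CPM with exact 95% intervals from pooled reads, which cover counting error only, prss59.2 was 127-fold higher at 72 hpf (74.2 to 239), prss59.1 113-fold (43.7 to 415), prss1 21.6-fold (15.2 to 31.5) and cpb1 7.12-fold (4.89 to 10.7). ctrb1 had 1 read at 24 hpf and 321 at 72 hpf, a ratio of 273 with an interval from 48.7 to 10835, and CPA1 (ENSDARG00000021339) had 3 and 419 reads, a ratio of 119 (40.4 to 579). Both of these genes also passed the test. CPA1 (ENSDARG00000030915), left out of the main fit, had 8 and 21 reads, a ratio of 2.24 (0.952 to 5.84). In the limma fit with no filter on low values its log2 difference was 0.36 ± 0.13 (adjusted p = 0.019).

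The elastases split. ela3l, with 6 reads in WIK at 24 hpf and 147 at 72 hpf, was 20.9-fold higher by the same ratio (9.36 to 57.8). ela2 went the other way, from 3.06, 2.53 and 2.15 CPM at 24 hpf to 0.342, 0.903 and 1.88 CPM at 72 hpf, which did not overlap, with a log2 difference of -1.12 ± 0.41 (adjusted p = 0.022). This call was lost without WIK replicate 1 at 24 hpf (adjusted p = 0.062), without WIK replicate 1 at 72 hpf (0.13) and with voom weights (0.053). ela2l, at 2.72, 1.43 and 1.13 CPM at 24 hpf, overlapped its 72 hpf values and did not pass (log2 difference -0.54, 95% interval -1.14 to 0.06, adjusted p = 0.095).

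In the knockout-labelled line 6 of the 8 tested genes were also called higher at 72 hpf and 1 lower, against 37.1% and 37.8% of all tested genes. The 6 called higher reached 1 CPM at 72 hpf only, so their count is again a description and not support for a rise. ctrb1 reached it in 2 knockout-labelled libraries and passed the filter only with those of WIK. By pooled reads prss59.2 was 33.5-fold higher at 72 than at 24 hpf, with a lower bound of 20.1-fold, prss59.1 16.2-fold (7.21 to 45.3) and prss1 6.88-fold (4.71 to 10.4). Each of these ratios is smaller than its counterpart in WIK. CPA1 (ENSDARG00000021339), with 3 reads at 24 hpf, was 63.0-fold higher (21.3 to 308) and cpb1 4.78-fold (3.00 to 7.94). ctrb1 had 0 reads in the knockout-labelled libraries at 24 hpf and was at least 8.76-fold higher at 72 hpf, taking 3 reads per library as the floor. Of the genes left out of the main fit, ela3l had 5 and 10 reads, a ratio of 1.93 (0.601 to 7.19). CPA1 (ENSDARG00000030915) had 11 reads at each age, a ratio of 0.965 (0.379 to 2.45). The gene called lower was ela2l (log2 difference -1.16 ± 0.28, adjusted p = 0.0015), while ela2 was at -0.82 ± 0.41 (adjusted p = 0.079).

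**Figure D4:**
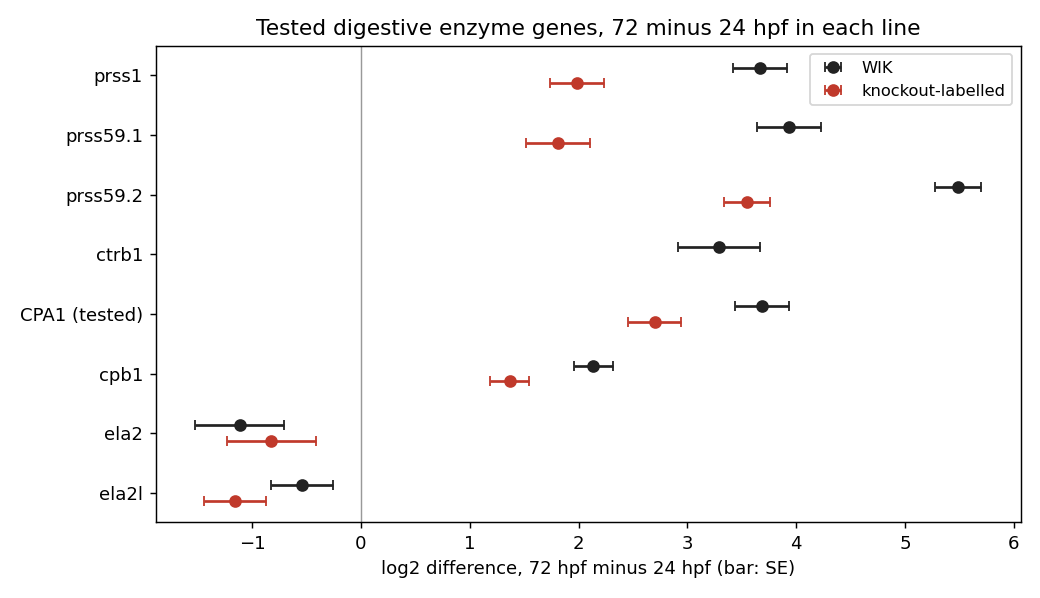
Log2 difference of 72 from 24 hpf (horizontal axis, on log2(CPM + 0.5), bars are standard errors) for the tested genes in WIK (black) and in the knockout-labelled line (red); ctrb1 is shown for WIK only, since it had 0 reads in the knockout-labelled libraries at 24 hpf. The trypsins lie farther right in WIK (3.67 to 5.49) than in the knockout-labelled line (1.81 to 3.55), and ela2 and ela2l lie left of 0 in both.

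Whether the knockout-labelled difference itself changed with age was tested as an interaction, the difference at 72 hpf less that at 24 hpf. The 3 trypsins passed: prss59.2 at -1.94 ± 0.30 (adjusted p = 0.0013), prss59.1 at -2.12 ± 0.42 (0.0076) and prss1 at -1.68 ± 0.35 (0.011). The background was 2.15% of all tested genes called in that direction. The other 5 tested genes did not pass, at -1.52 ± 0.53 for ctrb1 (adjusted p = 0.11), -0.99 ± 0.35 for CPA1 (ENSDARG00000021339) (0.12), -0.77 ± 0.25 for cpb1 (0.094), -0.62 ± 0.40 for ela2l (0.39) and 0.29 ± 0.58 for ela2 (0.79). The 24 hpf side of these values rests on few reads, 4 in WIK and 6 in the knockout-labelled libraries for prss59.1, and with voom weights on the recovered reads 0 of the 8 genes were called (adjusted p = 0.25, 0.30 and 0.26 for prss1, prss59.1 and prss59.2). Without WIK replicate 1 at 72 hpf 5 genes were called, ctrb1 and CPA1 (ENSDARG00000021339) being added.

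At 24 hpf the groups were compared for the knockout label and for the morpholino. None of the 8 tested genes passed the limma test in any of the 4 comparisons. The summed level of the 10 genes was 6.26 ± 1.05 CPM for WIK and 4.16 ± 1.05 for the knockout label. It was 4.5 ± 0.771 CPM after the her3 morpholino and 3.95 ± 0.373 after its mismatch control (SD, n = 3 in each), and these sums were carried mostly by ela2, ela2l, prss1 and cpb1.

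Knockout-labelled against WIK at 24 hpf gave 0 called genes of 8 (12.6% of all tested genes were called), 0 at an unadjusted p under 0.05 and 0 with voom, with cpb1 lowest in adjusted p (log2 difference -0.36 ± 0.18, adjusted p = 0.19). The her3 morpholino against the mismatch morpholino likewise gave 0 called (background 3.35%), 0 at an unadjusted p under 0.05 and 0 with voom, with a lowest adjusted p of 0.61 for ela2. Against WIK, the her3 morpholino gave 0 called (background 14.5%), 0 at an unadjusted p under 0.05 and 0 with voom, and the mismatch morpholino gave 0 called (background 10.5%), 2 at an unadjusted p under 0.05 and 0 with voom. Those 2 were ela2, at 0.530, 1.46 and 1.34 CPM with the mismatch morpholino (log2 difference -0.98 ± 0.41, adjusted p = 0.14), and prss59.2 (-0.45 ± 0.21, adjusted p = 0.18). The comparisons with WIK share the WIK libraries. For prss59.1, prss59.2, ctrb1, CPA1 and ela3l the highest library at 24 hpf reached 0.358 CPM, so their comparisons at that age rest on few reads and have little power.

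Other genes of the exocrine pancreas were read beside the enzymes at 72 hpf. Over all genes tested, 5.71% were called lower and 5.11% higher at that age, and no list was tested against that share. Of 17 other enzyme and zymogen granule genes matched, 8 were tested, 6 of these fell, 0 rose and 2 did not pass (median log2 difference -1.13). The count was also 6 without WIK replicate 1, where the median was -1.27, and 6 without the 4 libraries that stood apart. The chymotrypsinogen ctrb.3, which is separated from ctrb1 by ctrb.2 alone in the RefSeq annotation, was at 2.54, 7.01 and 5.44 CPM in WIK and at 0.921, 1.44 and 0.641 CPM in knockout-labelled pools, a log2 difference of -1.81 ± 0.24 (adjusted p = 9.5e-05). The chymotrypsin-like ctrl was at 2.93, 4.41 and 4.88 CPM in WIK and at 1.02, 1.87 and 1.1 CPM in knockout-labelled pools (-1.32 ± 0.22, adjusted p = 0.00063). In both genes the groups did not overlap and WIK replicate 1 was the lowest WIK library.

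The pancreatic disulfide isomerase pdia2, which helps to fold secreted proteins, was at 4.29, 5.26 and 5.23 CPM in WIK and at 1.48, 2.10 and 1.88 CPM in knockout-labelled pools (-1.23 ± 0.15, adjusted p = 3.2e-05). CEL (ENSDARG00000017490), the bile-salt-stimulated lipase, was at 1.56, 2.82 and 3.05 CPM and at 0.614, 1.05 and 0.824 CPM (-1.14 ± 0.17, adjusted p = 0.00030). Also among those that fell was amy2al1, of the amylase family, at -1.11 ± 0.19, named after its values were seen. The 2 that did not pass, also named after their values were seen, were the serine protease genes prss60.1 (-0.05 ± 0.18), near 0 CPM at 72 hpf, and prss60.2 (-0.03 ± 0.20). prss60.2 was at 6.34, 6.59 and 6.40 CPM in WIK and at 6.55, 6.46 and 5.95 CPM in knockout-labelled pools, with WIK replicate 1 level with the others. At 24 hpf amy2al1 was at 3.82, 3.06 and 4.09 CPM in WIK and at 2.40, 1.61 and 2.10 CPM in knockout-labelled pools, without overlap. Its difference at 72 hpf was thus not confined to that age. At 24 hpf 1 of the 8 tested genes of this list was called lower and 0 higher (6.63% and 6.01% of all tested genes).

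Measured in whole embryos, genes that regulate acinar and pancreatic progenitor cells did not move with the enzymes as a group. Of 15 tested, 0 rose, 1 fell and 14 did not pass (median log2 difference 0.04), where 5.71% of all tested genes were called lower and 5.11% higher. PTF1A, a transcription factor that drives acinar genes, was at 3.61, 3.61 and 3.15 CPM in WIK and at 4.50, 2.97 and 3.57 CPM in knockout-labelled pools, and these groups overlapped. Its log2 difference was 0.06 with a 95% interval from -0.31 to 0.43, and that of NR5A2, a nuclear receptor active in acinar cells, was 0.28 (-0.01 to 0.57). The gene that fell was CCKAR, the receptor for cholecystokinin, at 4.39, 4.68 and 4.22 CPM in WIK and 2.0, 2.01 and 2.01 CPM in knockout-labelled pools (-0.97 ± 0.15); these 3 genes were named after their values were seen. RBPJL and BHLHA15, also named after their values were seen, were near the read floor at 72 hpf. Their means were 0.0849 and 0.222 CPM in WIK and 0.111 and 0.241 CPM in knockout-labelled pools, and RBPJL was not tested. Whole-embryo RNA does not show which tissue a regulator's transcripts came from, so its level in acinar cells was not measured. In 34 tested genes of the endoplasmic reticulum secretory pathway, through which every secreted protein passes, 2 rose, 3 fell and 29 did not pass (median 0.08); with voom 6 rose and 3 fell. Named after their values were seen, those that fell were the chaperones HSP90B1 (-0.77 ± 0.12) and CALR (-0.74 ± 0.07) and the retrieval receptor KDELR3 (-0.48 ± 0.15), and those that rose were the co-chaperone DNAJB11 (0.40 ± 0.07) and the oxidase ERO1A (0.89 ± 0.18). HSP90B1 was already lower at 24 hpf, at 167, 143 and 117 CPM in WIK and at 71.1, 79.9 and 72.7 CPM in knockout-labelled pools. Its difference was thus not confined to 72 hpf.

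Endocrine and neighbouring tissues were read in the same way, beside the 5.71% of all tested genes called lower and the 5.11% called higher. Each list is named for the tissue its genes were chosen for. Whole-embryo RNA does not show which tissue a transcript came from, so a list's sum is not a measure of that tissue alone. Of 14 tested endocrine pancreas genes 1 rose, 1 fell and 12 did not pass (median log2 difference -0.01), and the summed level of that list was 710 to 761 CPM in WIK and 696 to 819 CPM in knockout-labelled pools. The zinc transporter gene SLC30A8 rose (0.93 ± 0.13), and insulin (ins) was at -0.65 with a 95% interval from -1.51 to 0.21; both were named after their values were seen. Of 25 tested liver genes 0 rose, 0 fell and 25 did not pass by limma (median -0.22; 0 at an unadjusted p under 0.05 and 0 with voom), and of 17 tested intestine genes 0 rose, 4 fell and 13 did not pass (median -0.24). The 4, named after their values were seen, were the intestinal transcription factor cdx1b (-0.80 ± 0.15), the apolipoprotein apobb.2 (-0.85 ± 0.25), the endocytic receptor CUBN (-0.75 ± 0.22) and the keratin krt92 (-0.59 ± 0.13). In the hatching gland list 1 gene rose, 2 fell (1 with voom) and 4 did not pass: the hatching enzyme genes he1.1 (-1.36, adjusted p = 0.0034) and he1.2 (-1.20, adjusted p = 0.0077) fell, and ctsl.1, a cathepsin L, rose from 4.05, 6.70 and 2.95 CPM in WIK to 11.7, 11.5 and 9.11 CPM (adjusted p = 0.0033).

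The summed level of the liver list was 1072 CPM in WIK replicate 1 and 1547 and 1502 CPM in the other WIK libraries at 72 hpf, and that of the intestine list 540, 628 and 581 CPM in WIK replicates 1, 2 and 3. WIK replicate 1 was thus the lowest WIK library for these lists as well as for the enzymes, while for the endocrine list it was the highest at 761 CPM. The intestine sums were 409 to 473 CPM in knockout-labelled pools, below all WIK libraries, and the liver sums 1074 to 1331 CPM, overlapping WIK. The part of these tissues in the enzyme result was not tested.

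**Figure D5:**
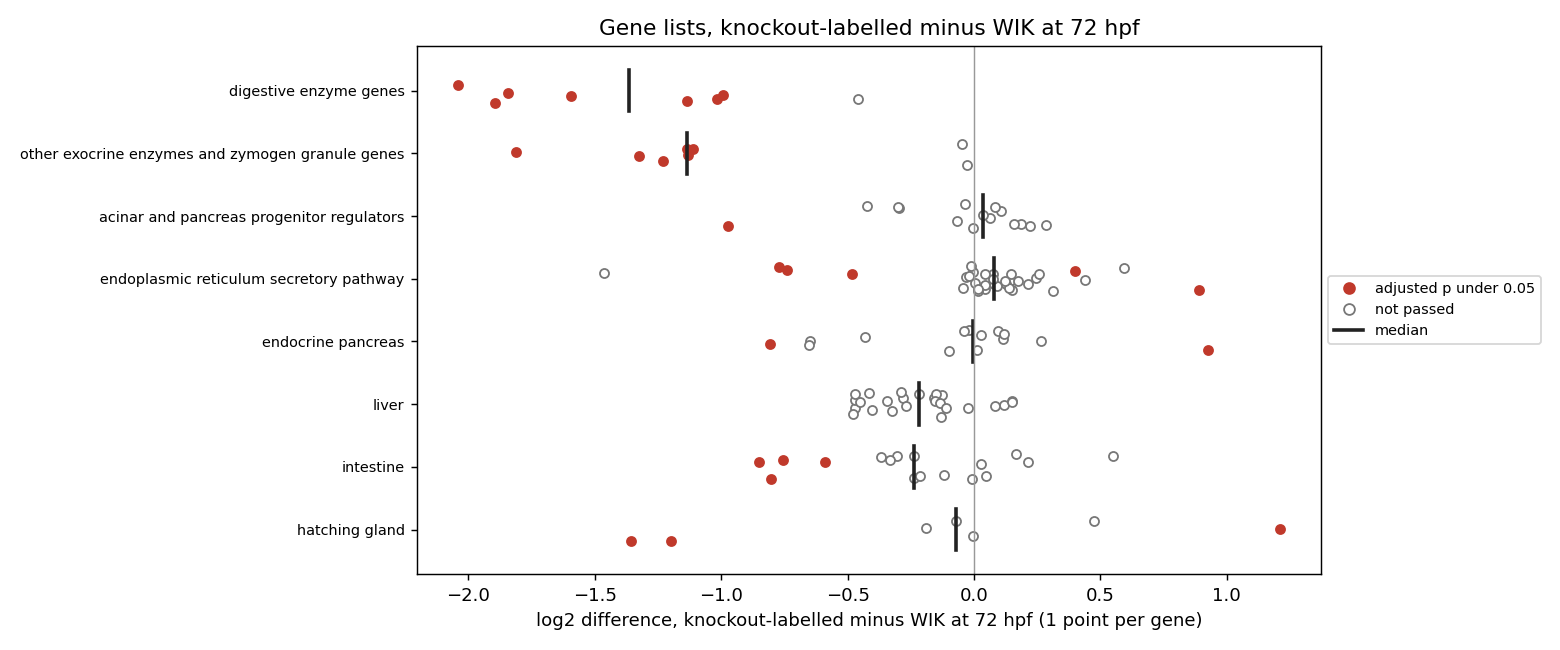
Log2 difference of knockout-labelled from WIK libraries at 72 hpf (horizontal axis) for each tested gene of each list (points; filled red, adjusted p under 0.05; open, not passed), with the list's median (black bar). The medians are -1.37 for the digestive enzymes, -1.13 for the other exocrine genes and between -0.24 and 0.08 for the other 6 lists.

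Genes with the pattern most like that of the enzymes were found by the root mean square difference between a gene's centred log2 profile and the mean centred profile of the 8 tested enzymes. Over all 18 libraries the 8 closest of 20730 other genes included CEL (0.162), crp3 (0.217), ctrl (0.236), ctrb.3 (0.274), c3a.2 (0.290), ENSDARG00000114454 (0.294) and b2ml (0.297). CEL, ctrl and ctrb.3 belong to the other exocrine list, while c3a.2 is a complement component gene and b2ml a beta-2-microglobulin gene. The enzymes' own differences from their mean profile ran from 0.300 for cpb1 and 0.333 for ctrb1 to 1.28 for prss59.2, 1.36 for ela2l and 1.42 for ela2, so each of the 8 tested enzymes lay farther from their mean profile than the genes named here did.

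Over the 6 libraries at 72 hpf alone, among 11034 genes with a mean of at least 10 CPM, the 8 closest included MYL7 (0.283), cacng6b (0.341), ppp3cca (0.360), RAB7A (0.367), ehbp1l1a (0.373), VTI1B (0.388) and si:ch73-237c6.1 (0.393). None of those 8 belongs to the other exocrine list, and MYL7 is a heart myosin light chain. The search did not use the 24 hpf libraries, so it shows no likeness at that age. There cacng6b (mean 7.38 CPM in WIK, 2.41 knockout-labelled), VTI1B (13.9 and 7.53) and si:ch73-237c6.1 (18.0 and 6.45) were also lower in knockout-labelled pools. At 24 hpf the groups overlapped for MYL7 and ppp3cca and were separate by less for RAB7A and ehbp1l1a. The other exocrine genes fell below the 10 CPM limit of that search.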

How the data were processed

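The authors deposited 1 table of CPM values, with samples in rows and 25535 genes in columns. The submitters' processing notes name the danRer11 build and the tools HISAT2 (2.2.1), featureCounts (2.0.2), SAMtools (1.10) and edgeR (3.34.0), with no settings. No source used here gives the strand setting or says how multi-mapping reads were treated. A library sums to between 912145 and 1206849 CPM, which shows scaling to an effective library size. In every library 100% of the values were a whole number of reads, within 0.01 reads. These recovered reads, 14214136 to 23135995 per library, set the precision, and intervals and floors cover counting error only.

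The main test was run on log2(CPM + 0.5), which understates the change of low genes. Genes reaching 1 CPM in at least 3 libraries, 20738 in all, were fitted with limma 3.58.1 in R 4.3.3 (eBayes, trend and robust), all 18 libraries together and 1 coefficient per group. The p-values were adjusted by the Benjamini-Hochberg method over all genes in that fit and called at 0.05. The scripts were tested on simulated data. The changed genes in that simulation had higher mean levels than the enzyme genes, so it did not check calls at the enzymes' level. The labels describe the replicates as biological. The main fit gives each gene 1 spread shared by all 18 libraries. Its p-values therefore do not reflect the spread of the compared pools alone. Enzymes near 0 at 24 hpf, such as ctrb1 with 0 reads in 10 of 12 libraries, vary little there on this scale. Their standard errors and p-values at 72 hpf may therefore be too small. A fit of the compared groups alone at that age leaves the 24 hpf libraries out.

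The genes, gene lists and tests were chosen with earlier results of these data known. Besides the enzymes, genes were named as the 8 most like them over all 18 libraries and over the 6 at 72 hpf, and as at most the 4 highest and 4 lowest called genes of a list with at least a 2-fold difference. Symbols were available for 23539 identifiers. Synonyms and gene neighbours came from RefSeq (GRCz12tu), whose coordinates were not used because the builds differ. Spike-in transcripts and gene sequences were not analysed here. Some single genes that met the naming rule are not reported here. The design foresaw a count test had raw counts been given. Voom weights on the recovered reads, and a fit without the 4 libraries that stood apart, were added after the data were seen.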

Additional observations from a re-analysis of the deposited data

Results flagged for a closer look

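The interaction test called the difference between knockout-labelled and WIK libraries unequal at 24 and 72 hpf for 3 trypsin genes. At 24 hpf prss59.1 reached at most 0.158 CPM and prss59.2 at most 0.358 CPM, under the pseudocount of 0.5. For these 2 genes the test could therefore show little of any difference at 24 hpf. The log2 difference at 72 hpf less that at 24 hpf was -1.68 for prss1, -2.12 for prss59.1 and -1.94 for prss59.2. The call for prss1 was lost with a pseudocount of 0.1 (adjusted p = 0.059), and all 3 calls were lost with voom weights, where the values were -1.58, -2.78 and -2.09. The levels at 24 hpf rest on 64 reads of prss1, 10 of prss59.1 and 28 of prss59.2 over the 6 libraries compared.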

How the results depend on the processing

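At 72 hpf the number of enzyme genes called, 7 of 8 tested, was 7 with a pseudocount of 1 and with plain totals, 6 with a pseudocount of 0.1, with voom weights and without the 4 libraries that stood apart, 5 with only the compared groups, and 8 of 10 with no filter. Leaving out 1 library gave 4 to 7, with 4 without WIK replicate 2 and 4 without knockout-labelled replicate 1; prss1, prss59.1, prss59.2 and cpb1 kept their calls under each alternative run. The interaction count of 3 was 0 with voom, 5 without WIK replicate 1 at 72 hpf and 3 without each other library, and ela2, at 0.29, turned to -0.07 without knockout-labelled replicate 3 at 24 hpf and to -0.0816 without WIK replicate 1 at 72 hpf (its values with 1 library left out ran up to 0.676). The mismatch morpholino count of 0 against WIK was 1 with a pseudocount of 0.1. The cause of these changes was not tested. Deviations of same-numbered libraries had correlations of 0.11, 0.06 and 0.24 at 72 hpf, and of -0.58 to 0.32 over the comparisons. With 3 pools per group these do not settle whether the numbers pair the libraries. With the number as a replicate block 7 genes were called at 72 hpf. Over all genes the count at 72 hpf moved from 2245 to 3528 with only the compared groups, 4645 without the 4 libraries, 1418 without WIK replicate 2 and 1451 without knockout-labelled replicate 2. The edgeR fit listed as an alternative was not run. Depth limits every 24 hpf value: 8 of the 10 genes had under 1 CPM in every library of that age.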

Other observations

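A gene with the symbol prss59 (ENSDARG00000076602), which is not among the enzymes and was chosen after its values were seen, ran opposite to prss59.1 and prss59.2 with age. It ranged from 42.5 to 65.5 CPM over the 12 libraries at 24 hpf and from 17.6 to 20.7 CPM over the 6 libraries at 72 hpf. At 72 hpf it was at 19.1, 20.7 and 18.3 CPM in WIK and at 18.9, 20.5 and 17.6 CPM in the knockout-labelled libraries, so the groups overlapped and WIK replicate 1 lay between the other WIK libraries.

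Among the other lists, the acinar and pancreas progenitor regulators were mostly lower at 72 than at 24 hpf in WIK, with 0 of 15 tested genes called higher and 13 lower, while 8 of 14 endocrine genes were called higher and 4 lower. In the liver list 5 of 25 tested genes were called higher and 19 lower, in the intestine list 4 of 17 higher and 9 lower, and in the hatching gland list 1 of 7 higher and 5 lower. The endoplasmic reticulum secretory list had 2 of 34 called higher and 23 lower. Over all genes tested, 38.6% were called higher and 36.0% lower between these ages, so such counts are common, and no list was tested against that share. The liver list summed to 14507.5 to 18757.3 CPM in WIK at 24 hpf and to 1072 to 1547 CPM at 72 hpf. Which tissue these transcripts came from at either age was not tested, so the fall is not a measure of the liver itself. amy2al1, of the amylase family and named after its values were seen, was at 3.82, 3.06 and 4.09 CPM in WIK at 24 hpf and at 2.63, 1.86 and 1.73 CPM at 72 hpf, an order shared with ela2. In its knockout-labelled libraries at 72 hpf amy2al1 was at 1.02, 0.526 and 0.549 CPM, below every WIK library of that age. Its knockout-labelled libraries at 24 hpf, at 2.40, 1.61 and 2.10 CPM, were also below every WIK library of their age.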
